A study of Mus musculus with 11 samples.

Results

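Dnajb9, the gene for an ER-resident co-chaperone, was expressed at a higher level in thymocytes of Zmat3-/- and TKO mice than in those of wt mice, and the question here was whether 9 other genes of the unfolded protein response and the integrated stress response shared that difference. The 10 genes were Dnajb9, Hspa5, Hyou1, Sdf2l1, Xbp1, Edem1, Herpud1, Atf4, Ppp1r15a and Ddit3, out of 54418 genes in the table, and each was found by its name in the mouse annotation on GRCm38. The set was chosen by the Dnajb9 difference between the mutant and wt mice of these same libraries, so the Dnajb9 values against wt are given as a description with no test. RNA was sequenced from a suspension of the whole thymus of each mouse, in 4 wt mice, 4 Zmat3-/- mice and 3 Puma-/-p21-/-Zmat3-/- (TKO) mice, all 8 to 12 weeks old and given no treatment that the labels name. Every mutant mouse therefore lacked Zmat3, which encodes an RNA-binding protein and is induced by TRP53, in all its cells, and the TKO mice also lacked Puma (Bbc3), a pro-apoptotic gene, and p21 (Cdkn1a), a cell cycle inhibitor gene. No mouse lacked Puma and p21 alone, so the comparison of TKO with Zmat3-/- mice is the only one that bears on those deletions.

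The unfolded protein response is set off when unfolded proteins collect in the endoplasmic reticulum (ER), and it runs through the sensors IRE1, PERK and ATF6. IRE1 splices the Xbp1 mRNA, ATF6 is cut to release a transcription factor, and PERK phosphorylates the translation factor eIF2alpha. The last step is shared with other kinases and is called the integrated stress response: general translation falls while the transcription factor ATF4 is made, which in turn raises Ddit3 (CHOP) and Ppp1r15a (GADD34), the subunit that brings a phosphatase back to eIF2alpha. In lymphocytes the response is best known from plasma cells, whose antibody secretion needs XBP1. Sums of reads per gene measure the total mRNA of each gene and show neither the splicing of Xbp1 nor the translation of Atf4.

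Library totals lay between 17669715 and 80207003 counts. All 15 thymocyte markers were detected in every genotype, and their summed levels overlapped between genotypes (in CPM, the counts scaled to a library total that was corrected by edgeR's TMM factor: wt 14923 to 16399, Zmat3-/- 13565 to 15808, TKO 14372 to 18594). Of these markers 12 had a log2 fold change below 0 against wt in each mutant genotype, with a median of -0.26 in Zmat3-/- and -0.20 in TKO mice (-0.03 and -0.04 over all tested genes). None passed edgeR's test, described with the first comparison, while 3 and 1 of them were lower at an unadjusted p under 0.05 (16.1% and 10.3% of all tested genes) and DESeq2 called 3 and 0 (8.04% and 2.87%). The median of these markers was -0.42 and -0.39 against wt mice 1 and 2 alone and 0.03 and -0.0009 against wt mice 3 and 4 alone. The wt libraries fell into pairs: log2 CPM over 13522 genes correlated at 0.98 within wt mice 1 and 2 and within wt mice 3 and 4, at 0.89 to 0.92 across these pairs, and at 0.97 to 0.99 among the 7 mutant mice. Xist, the RNA of the silenced X chromosome, was at 505 to 1485 CPM in mice 1 and 2 of the wt group, mice 1 and 2 of the Zmat3-/- group and mouse 1 of the TKO group, while the other 6 mice had 0.806 to 2.54 CPM. The 10 genes and the gene lists were therefore also compared with either pair of wt mice, an alternative chosen after the data were seen. An adjusted p against 1 pair leaves out the spread between the wt pairs, so it only describes those mice. With wt mice 3 and 4 alone, 33.0% and 8.15% of all tested genes passed in Zmat3-/- and TKO mice. With wt mice 1 and 2 alone, the shares were 56.1% and 43.6%. Zmat3 itself was at 9.88, 12.2, 26.7 and 26.8 CPM in the wt mice, 5.34 to 6.85 CPM in the Zmat3-/- and 7.78 to 8.25 CPM in the TKO mice, with no overlap of either mutant group with wt. Bbc3 and Cdkn1a were lower in the TKO mice than in every wt mouse (12.9 to 15.2 against 16.8 to 20.1 CPM, and 2.49 to 3.52 against 3.53 to 10.4 CPM). By edgeR's test these differences of the deleted genes from wt had adjusted p of 0.0786 to 0.443.

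None of the 9 other genes passed edgeR's quasi-likelihood test at an adjusted p under 0.05 in Zmat3-/- or TKO mice against wt, where 0.763% and 0.294% of all tested genes passed. At an unadjusted p under 0.05 the counts were 3 of 9 for Zmat3-/- mice (16.1% of all tested genes) and 2 of 9 for TKO mice (10.3%). In each comparison, Hspa5 and Ppp1r15a were the 2 of 9 genes whose values did not overlap between the groups, and both were higher in the mutants, against 14.1% and 12.1% of all tested genes that did not overlap. DESeq2, run on the same counts, called these same genes in both comparisons (8.04% and 2.87% of all genes). Both comparisons share the 4 wt mice, so they are not independent of each other.

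**Figure D1:**
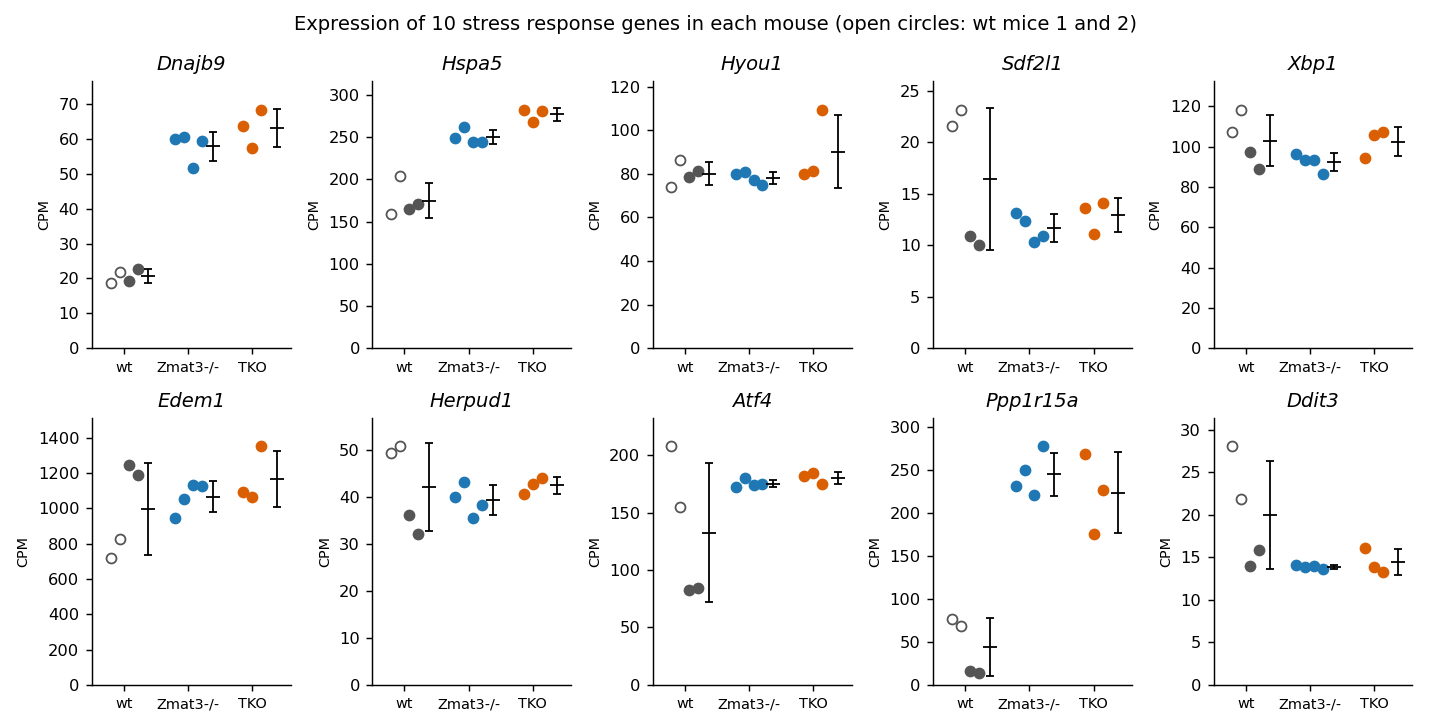
CPM of each gene (vertical axis, starting at 0) in every mouse, by genotype; circles are mice, open circles are wt mice 1 and 2, and the bars give mean ± SD. Dnajb9, Hspa5 and Ppp1r15a are higher in every mutant mouse than in every wt mouse, while Sdf2l1, Edem1, Herpud1, Atf4 and Ddit3 differ between the 2 pairs of wt mice more than between mutant genotypes.

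The ER chaperone genes were taken up before the other branches. Dnajb9 (ERdj4, at chr12:44205559-44210326 on the minus strand) encodes a partner of the chaperone BiP that helps to clear misfolded proteins and holds IRE1 inactive. Its level was 18.7, 21.8, 19.2 and 22.7 CPM in wt mice 1 to 4. It was 59.9, 60.6, 51.8 and 59.5 CPM in the Zmat3-/- mice and 63.7, 57.4 and 68.4 CPM in the TKO mice. The lowest mutant mouse stood well above the highest wt mouse, and the wt pairs were alike, with means of 20.3 and 20.9 CPM. The fold change was 2.82 (log2 1.495 ± 0.106, SE) for Zmat3-/- and 2.97 (log2 1.57 ± 0.13, SE) for TKO mice. Over the 20 and 18 alternatives, the log2 fold change stayed between 1.39 and 1.60 and between 1.49 and 1.63. Of the 31-base words of the Dnajb9 transcripts, 10.8% are shared with other genes, nearly all with the pseudogene Gm6568, which had at most 0.0556 CPM in any mouse.

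Hspa5 (BiP, at chr2:34771970-34777547 on the plus strand), the main HSP70 chaperone of the ER and the protein that DNAJB9 assists, was at 159, 205, 165 and 171 CPM in the wt mice. It was at 249, 262, 245 and 244 CPM in the Zmat3-/- mice and at 283, 269 and 281 CPM in the TKO mice. All 7 mutant mice were above all 4 wt mice. The difference was 1.44-fold (log2 0.52, 95% interval 0.29 to 0.76) in Zmat3-/- and 1.55-fold (log2 0.63, 0.31 to 0.95) in TKO mice. In edgeR's test the adjusted p was 0.0682 and 0.190, and in an exact permutation test of each comparison the two-sided p was 0.0286, the smallest that either design allows. With the same-numbered Zmat3-/- and wt mice taken as pairs, the exact permutation of signs gave p = 0.125, the smallest that 4 pairs allow, with a higher value in the Zmat3-/- mouse of all 4 pairs. DESeq2 gave an adjusted p of 3.08e-06 and 0.000117, and the edgeR fit of all 3 genotypes together 0.0295 and 0.0153. The size changed little with the wt mice used: the log2 fold change of Zmat3-/- mice was 0.48 against wt mice 1 and 2 and 0.56 against wt mice 3 and 4, and that of TKO mice 0.59 and 0.67. It was 0.52 among mice with high Xist and 0.52 among those with low Xist.

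Dnajb9 and Hspa5 were higher in the same mice, while Herpud1 was not. The promoter stretches of Hspa5 and Herpud1 printed here hold an ER stress motif. Those of Dnajb9 and Ppp1r15a do not: they hold only the 5 bases CCACG and a cAMP response element. All stretches come from the RefSeq windows of 250 bases before to 50 bases after each gene's start (build GRCm38.p6). These windows matched 9 of the 10 genes and not Hyou1. Positions are counted from the RefSeq start, each stretch is written 5′ to 3′ on the gene's strand, and capitals mark the motifs searched. The Hspa5 and Dnajb9 stretches lie inside an exon of the GENCODE annotation, whose transcripts start further upstream, and the other stretches lie outside the exons of their genes. They cover chr2:34772020-34772049 (plus strand) for Hspa5, chr12:44210157-44210186 (minus) for Dnajb9, chr8:94386299-94386398 (plus) for Herpud1 and chr7:45526269-45526368 (minus) for Ppp1r15a.
Hspa5: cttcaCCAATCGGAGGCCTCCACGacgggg
Dnajb9: caacagttttCCACGtgcgcgtagggcgcc
Herpud1: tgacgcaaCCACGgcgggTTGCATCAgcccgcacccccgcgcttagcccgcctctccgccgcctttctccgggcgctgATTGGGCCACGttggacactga
Ppp1r15a: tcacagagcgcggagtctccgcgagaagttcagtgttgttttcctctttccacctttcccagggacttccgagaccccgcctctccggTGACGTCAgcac

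Motifs were searched on both strands. The ER stress response element (ERSE), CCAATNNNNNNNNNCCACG, to which ATF6 binds, was in the Hspa5 window, 65 bases before the start, and in 0.119% of all 32851 windows. ERSE-II, which is ATTGG, 1 base of any kind and CCACG, was in the Herpud1 window 52 bases before the start and in 0.0365% of all windows. The C/EBP-ATF response element, TGATGNAA, a target of ATF4, was on the minus strand of the Herpud1 window 112 bases before the start, and 3.97% of windows hold it. The cAMP response element, TGACGTCA, was in the Ppp1r15a window 12 bases before the start and in 1.79% of windows. The Dnajb9 window held none of these, and the unfolded protein response element TGACGTGG, which 0.676% of windows hold, was in none of the 9 windows. The 5-base CCACG that ends both ERSE forms (and overlaps them) was in 7 of the 9 windows, Dnajb9 included, and in 32.8% of all. These matches describe letters in a window and say nothing about binding in these cells.

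Hyou1 (chr9:44379490-44392369), the gene for the ER chaperone GRP170 that acts as a nucleotide exchange factor for BiP, overlapped between the groups. It measured 80.1 ± 5.36 CPM (SD, n = 4) in wt, 78.2 ± 2.87 (n = 4) in Zmat3-/- and 90.1 ± 16.7 (n = 3) in TKO mice, and the TKO spread came from mouse 3 at 109 CPM. The log2 fold change had an interval of -0.22 to 0.16 for Zmat3-/- mice and -0.16 to 0.40 for TKO mice, so a difference as large as that of Hspa5 in Zmat3-/- mice lies outside both intervals. Against either wt pair the log2 fold change of Hyou1 was -0.02 and -0.04 in Zmat3-/- mice and 0.14 and 0.10 in TKO mice. Sdf2l1 (chr16:17130138-17132383), whose product forms a complex with ER chaperones, was at 21.6 and 23.1 CPM in wt mice 1 and 2 and at 10.9 and 10.04 CPM in wt mice 3 and 4. The Zmat3-/- mice had 10.3 to 13.1 CPM and the TKO mice 11.1 to 14.1 CPM, between the wt pairs or level with the lower of them. Its fold change did not pass (edgeR adjusted p = 0.428 and 0.664), and its direction turned with the wt pair: the log2 difference of Zmat3-/- mice was -0.92 (adjusted p = 0.000331) against wt mice 1 and 2 and 0.15 (adjusted p = 0.418) against wt mice 3 and 4. In TKO mice these differences were -0.81 (adjusted p = 0.00355) and 0.25 (adjusted p = 0.316).

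**Figure D2:**
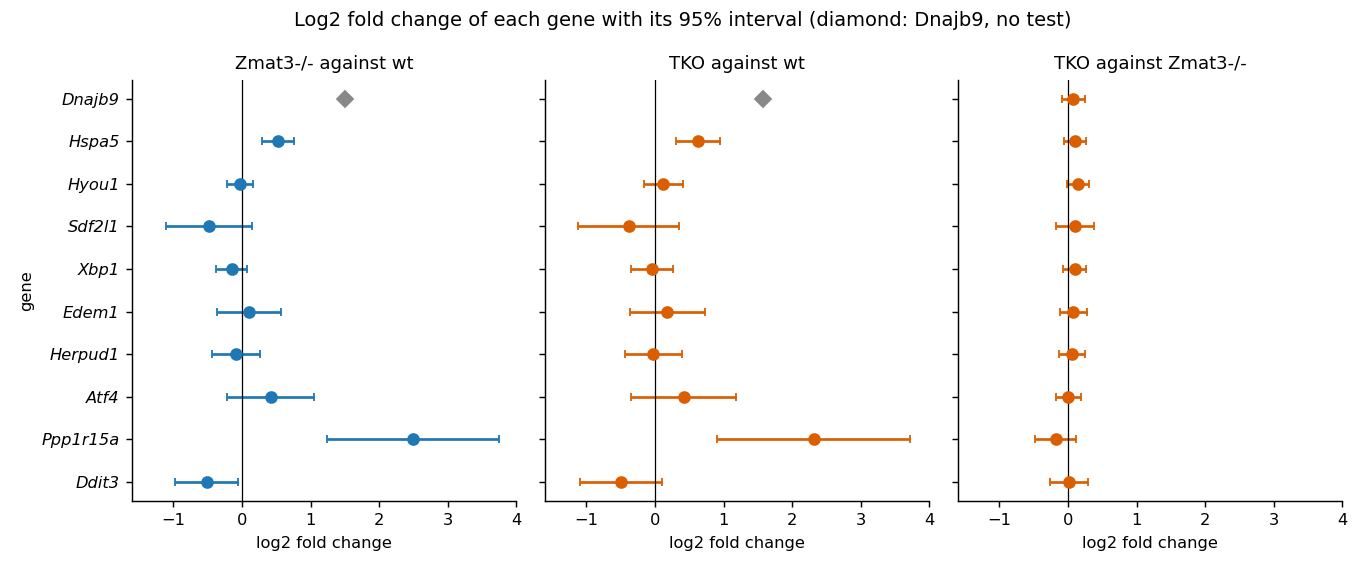
Log2 fold change of each gene (horizontal axis) with its 95% interval in the 3 comparisons; the grey diamonds are Dnajb9 against wt, which has no test. The intervals of Hspa5 and Ppp1r15a lie above 0 in both comparisons with wt, and in TKO against Zmat3-/- mice all 10 intervals cross 0.

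Among the genes of the XBP1 branch and of ER-associated degradation, none passed the test with all 4 wt mice. Xbp1 (chr11:5520659-5525893), the transcription factor that IRE1 activates, was at 107, 118, 97.6 and 88.8 CPM in wt, 86.2 to 96.6 CPM in the Zmat3-/- group and 94.2 to 107 CPM in the TKO group, and the groups overlapped. Each Zmat3-/- mouse was below the wt mouse of the same number, with log2 differences of -0.35 to -0.04 (exact permutation of signs, p = 0.125, the smallest that 4 pairs allow). Against wt mice 1 and 2 the log2 fold change of Xbp1 was -0.27 (adjusted p = 0.0131) in Zmat3-/- and -0.16 (adjusted p = 0.302) in TKO mice, and against wt mice 3 and 4 it was -0.02 (adjusted p = 0.812) and 0.08 (adjusted p = 0.641). Edem1 (chr6:108828641-108859356), a mannosidase-like protein that hands misfolded glycoproteins to degradation, was at 722 and 828 CPM in wt mice 1 and 2 and at 1247 and 1187 CPM in wt mice 3 and 4. The Zmat3-/- mice (945 to 1135 CPM) lay between these pairs, as did 2 of the 3 TKO mice (1065 and 1091 CPM), and the TKO mouse 3 was at 1352 CPM. Herpud1 (chr8:94386438-94395377), a membrane protein that gathers the degradation machinery, was at 49.5 and 50.8 CPM in wt mice 1 and 2 and at 36.2 and 32.1 CPM in wt mice 3 and 4. Its mutant values ran from 35.6 to 44.1 CPM. For these genes the edgeR adjusted p was 0.492, 0.829 and 0.782 in Zmat3-/- mice and 0.900, 0.772 and 0.961 in TKO mice, in the order Xbp1, Edem1, Herpud1. Edem1 in Zmat3-/- mice was 0.47 higher on the log2 scale against wt mice 1 and 2 (adjusted p = 0.00471) and 0.20 lower against wt mice 3 and 4 (adjusted p = 0.0866). Herpud1 moved the opposite way, with log2 fold changes of -0.34 (adjusted p = 0.00931) and 0.19 (adjusted p = 0.127). In TKO mice Edem1 was at 0.57 (adjusted p = 0.0133) and -0.12 (adjusted p = 0.422), and Herpud1 at -0.26 (adjusted p = 0.101) and 0.26 (adjusted p = 0.162), against the same pairs.

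Of the integrated stress response genes, Ppp1r15a (chr7:45522916-45526268, minus strand) had the largest difference from wt of all 10 genes with all 4 wt mice in the fit. It was at 76.2, 68.9, 16.2 and 14.2 CPM in the wt mice, so the wt pairs differed by 2.25 on the log2 scale. It was at 231, 250.2, 221 and 277 CPM in the Zmat3-/- mice and at 269, 175 and 226 CPM in the TKO mice, each above every wt mouse. The fold change was 5.64 (log2 2.50, 95% interval 1.25 to 3.75) in Zmat3-/- and 4.98 (log2 2.32, 0.91 to 3.72) in TKO mice, with edgeR adjusted p of 0.0858 and 0.299 and exact permutation p of 0.0286 and 0.0571. DESeq2 gave adjusted p of 7.35e-05 and 0.00449. Against wt mice 1 and 2 the log2 fold change was 1.77 in Zmat3-/- and 1.60 in TKO mice (adjusted p = 2.49e-05 and 0.000680). Against wt mice 3 and 4 it was 4.00 and 3.82 (adjusted p = 3.48e-08 and 7.1e-05), so the direction held and the size did not. The adjusted p-values of these fits leave out the spread between the wt pairs. Dnajb9 was at a log2 of 1.62 in TKO mice against wt mice 1 and 2. Since the study lists Ppp1r15a among its genes changed in TKO mice, its value is not independent evidence. Ppp1r15a overlaps Tulp2, which had 0 to 2.50 CPM, on the other strand.

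Atf4 (chr15:80255184-80257541), the transcription factor at the centre of the response, was at 208, 155, 82.6 and 84.7 CPM in wt mice. The Zmat3-/- mice had 172 to 180.1 CPM and the TKO mice 175 to 185 CPM, within the wt range and close together. The difference from wt depended on the wt mice used. In Zmat3-/- mice the log2 fold change was 1.06 against wt mice 3 and 4 (adjusted p = 1.9e-06). It was -0.04 against wt mice 1 and 2 (adjusted p = 0.792) and 0.42 against all 4 (adjusted p = 0.496). In TKO mice the same values were 1.06 (adjusted p = 0.00245), -0.02 (adjusted p = 0.919) and 0.42 (adjusted p = 0.652). With all 4 wt mice and 1 surrogate variable in the edgeR fit, Atf4 passed, at a log2 of 0.63 (adjusted p = 3.55e-05) in Zmat3-/- and 0.65 (adjusted p = 0.000546) in TKO mice, where 37.8% and 17.9% of all tested genes passed.

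Ddit3 (chr10:127290774-127296288), the pro-apoptotic transcription factor CHOP downstream of ATF4, was not higher in the mutants. It was at 28.0, 21.9, 13.98 and 15.9 CPM in wt mice. It was at 13.6 to 14.1 CPM in the Zmat3-/- group and 13.3 to 16.1 CPM in the TKO group, so that the mutants matched wt mice 3 and 4. The log2 fold change was -0.51 (interval -0.97 to -0.05, edgeR adjusted p = 0.264) and -0.50 (-1.10 to 0.10, adjusted p = 0.543). Against wt mice 1 and 2 it was -0.83 (adjusted p = 0.000422) and -0.80 (adjusted p = 0.00900), and against wt mice 3 and 4 it was -0.12 (adjusted p = 0.406) and -0.10 (adjusted p = 0.728). Ddit3 overlaps Mars on the other strand and the kit did not mark strand. Mars was at 54.0 to 75.1 CPM over the 11 mice, and its groups overlapped.

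With only 2 of the wt mice in the fit, more genes passed, both of this set and of the whole table. Without wt mice 1 and 2, 3 of the 9 genes passed in Zmat3-/- mice (33.0% of all tested genes) and 3 in TKO mice (8.15%), each time Hspa5, Atf4 and Ppp1r15a, all higher. Without wt mice 3 and 4, 7 of 9 passed in Zmat3-/- mice (56.1% of all genes), 3 higher and 4 lower, and 5 of 9 in TKO mice (43.6%), 3 higher and 2 lower. Hspa5 and Ppp1r15a were higher and passed under each of these 4 fits. With 1 surrogate variable and all wt mice, 5 of 9 genes passed in Zmat3-/- mice (37.8% of all genes): Hspa5, Ppp1r15a and Atf4 were higher, and Sdf2l1 (log2 -0.29) and Ddit3 (log2 -0.40) were lower. In TKO mice the first 3 of these passed (17.9%).

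**Figure D3:**
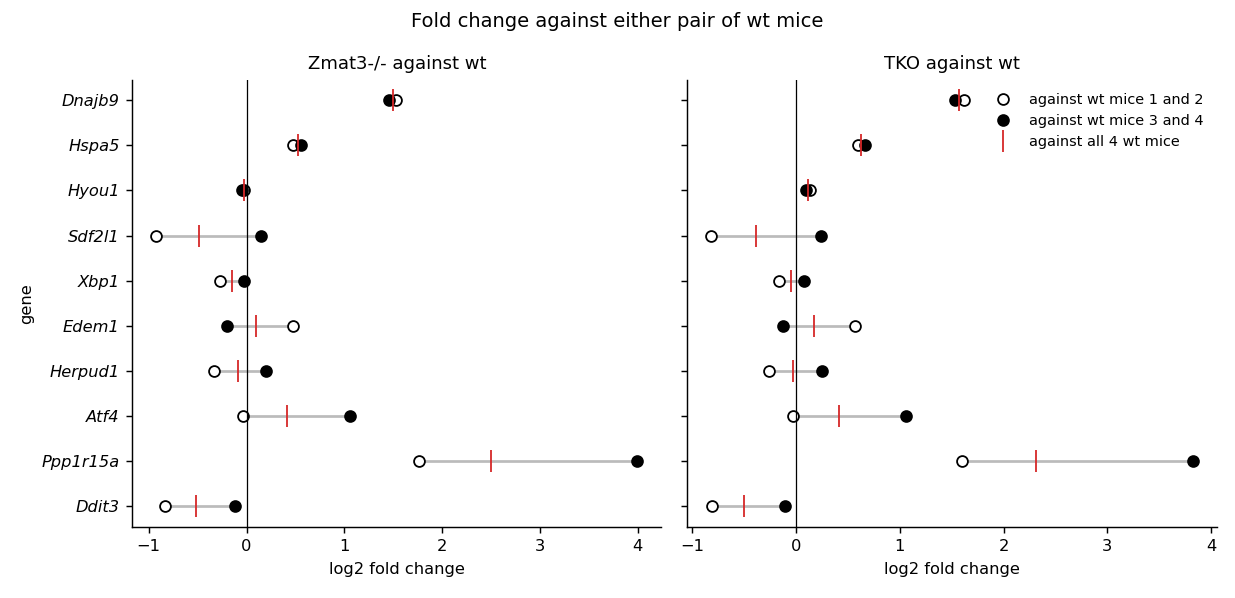
Log2 fold change of each gene (horizontal axis) against wt mice 1 and 2 only (open), wt mice 3 and 4 only (filled) and all 4 wt mice (red tick), for Zmat3-/- (left) and TKO mice (right). The symbols of Dnajb9, Hspa5 and Hyou1 lie close together, those of Ppp1r15a are far apart but above 0, and those of Sdf2l1, Edem1, Herpud1 and Atf4 fall on both sides of 0.

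The further loss of Puma and p21 came with no detected change in these genes. In TKO against Zmat3-/- mice, none of the 10 passed edgeR's test (0.221% of all genes did) or DESeq2's, and none had an unadjusted p under 0.05 (4.49% did). The log2 fold change of Dnajb9 was 0.07 (95% interval -0.09 to 0.24, adjusted p = 0.983), and that of Hspa5 was 0.10 (-0.06 to 0.27, adjusted p = 0.983), although the values of Hspa5 in the groups did not overlap (1 of 10 genes, 4.92% of all genes). The largest difference was that of Ppp1r15a at -0.18 (-0.48 to 0.12, adjusted p = 0.983). Of the 10 signs, 9 were positive.

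Levels can be compared between genes only per length of exon. Averaged over the 11 mice, Edem1 was highest at 166 CPM per kb, followed by Atf4 at 68.4, Ppp1r15a at 56.5 and Hspa5 at 54.4 CPM per kb. Xbp1 had 30.5, Dnajb9 18.0, Herpud1 17.7, Sdf2l1 12.4, Hyou1 11.4 and Ddit3 9.48 CPM per kb. In wt mice Dnajb9 had the lowest mean per length, 8.09 CPM per kb, and Ppp1r15a had 14.9. The wt mean of Ppp1r15a joins pairs at 72.6 and 15.2 CPM, while the pairs of Dnajb9 were at 20.3 and 20.9 CPM. Which of them was lower in wt mice therefore depended on the pair. In Zmat3-/- mice Dnajb9 had 22.7 and Ppp1r15a 83.3 CPM per kb, the latter above Atf4 (74.4) and Hspa5 (59.1), and in TKO mice they had 24.8 and 76.1 CPM per kb, the latter level with Atf4 (76.6).

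**Figure D4:**
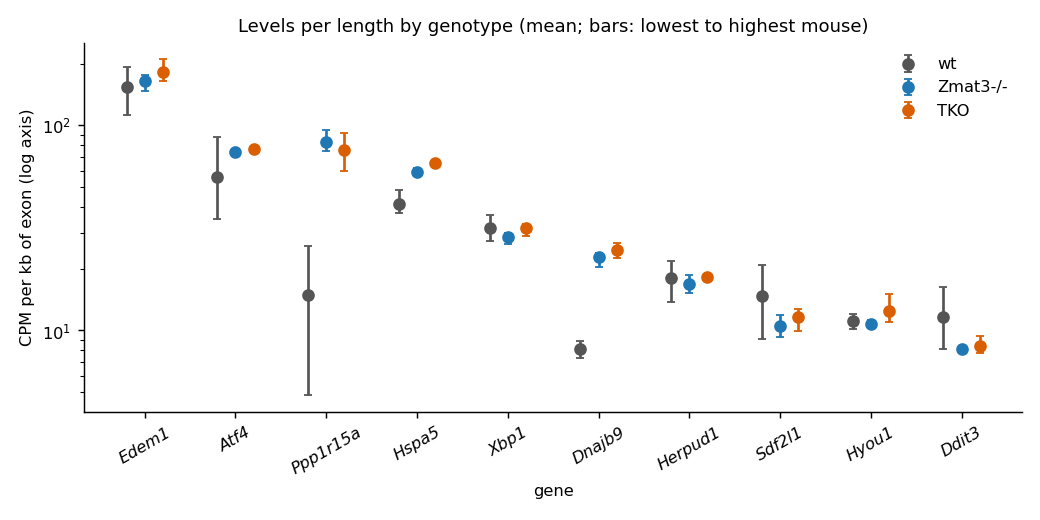
Level of each gene in CPM per kb of exon (log axis), with a point for the mean of each genotype and a bar from the lowest to the highest mouse. Ppp1r15a and Dnajb9 change their place among the genes between wt and mutant mice, and the wt bars of Atf4, Ppp1r15a, Sdf2l1 and Ddit3 are long.

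The wider pathway was covered by 6 lists of 109 gene symbols, of which Vimp and Selenos name the same gene, and 101 genes were tested in each comparison. None passed edgeR's test in any of the 3 comparisons (lowest adjusted p = 0.107, 0.255 and 0.983), while DESeq2 called 7 in Zmat3-/- and 3 in TKO mice against wt and 0 between the mutants (8.04%, 2.87% and 0.556% of all genes). At an unadjusted p under 0.05, 17 (8 higher, 9 lower) stood out in Zmat3-/- mice (16.1% of all tested genes), 7 (6 higher, 1 lower) in TKO mice (10.3%) and 4 in TKO against Zmat3-/- mice (4.49%). The median log2 fold change over the 101 genes was -0.08 in Zmat3-/- and -0.06 in TKO mice, beside -0.03 and -0.04 over all tested genes. With wt mice 1 and 2 left out, 29 of 102 pathway genes passed as higher and 5 as lower in Zmat3-/- mice, a share of 33.3% beside 33.0% of all tested genes. With wt mice 3 and 4 left out, 22 of 104 passed as higher and 49 as lower, a share of 68.3% beside 56.1%.

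By role, the list of sensors, eIF2alpha kinases and ATF6 proteases had 2 of 9 genes at an unadjusted p under 0.05 in each comparison with wt (16.1% of all tested genes in Zmat3-/- and 10.3% in TKO mice), and the ER chaperones and folding enzymes had 3 of 20 and 0 of 20. The eIF2, eIF2B and phosphatase subunits had 1 of 12 and 0 of 12, ER-associated degradation 5 of 15 and 3 of 15, the ATF4 and CHOP targets 4 of 26 and 2 of 26, and ER translocation with other XBP1 targets 2 of 19 and 0 of 19, so that most of these counts lay near or under the share of all genes. The median log2 fold change of the chaperone list was -0.24 in Zmat3-/- and -0.15 in TKO mice, with 15 of 20 values negative in each. Against wt mice 3 and 4 alone this median was -0.01 and 0.06, and against wt mice 1 and 2 alone it was -0.44 and -0.30, while the median of all genes stayed between -0.04 and 0.01 in these fits. The other lists also moved with the wt pair. Of the 9 sensor genes, 7 passed as higher and 2 as lower in Zmat3-/- mice against wt mice 1 and 2 alone, and 7 and 0 in TKO mice (56.1% and 43.6% of all genes passed), with a median of 0.74 and 0.65. Against wt mice 3 and 4 alone, 1 passed in each direction in both genotypes (33.0% and 8.15%), with a median of -0.07 and -0.12. The eIF2 list turned the other way, with a median of -0.29 and -0.36 against wt mice 1 and 2 and of 0.27 and 0.27 against wt mice 3 and 4, where all 12 values were positive. The ATF4 and CHOP targets had a median of -0.26 and -0.23 and then of 0.22 and 0.24, the translocation list -0.23 and -0.16 and then -0.0014 and 0.04, and the degradation list -0.06 and -0.04 and then 0.06 and 0.10.

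The gene with the smallest p in Zmat3-/- mice of each of the 6 lists is given here, chosen after the values were seen. Of the sensors, Eif2ak3, the gene for PERK, was at 59.0 to 93.2 CPM in wt, 97.6 to 117 CPM in the Zmat3-/- group and 113 to 146 CPM in the TKO group (log2 0.50 and 0.68, adjusted p = 0.168 and 0.290). Of the degradation genes, Herpud2, a relative of Herpud1, was at 36.1 to 48.2, 58.3 to 63.2 and 55.1 to 79.0 CPM (log2 0.51 and 0.56, adjusted p = 0.107 and 0.342). Of the ATF4 and CHOP targets, Cebpb, a transcription factor that ATF4 and many other signals raise, was at 2.65 to 11.4, 14.4 to 26.4 and 16.3 to 19.3 CPM (log2 1.56 and 1.45, adjusted p = 0.134 and 0.388), and the study names it among its changed genes. Of the other lists, Ppp1cb, a catalytic subunit of protein phosphatase 1, was at 228 to 252 CPM for wt, 278 to 296 CPM for Zmat3-/- and 274 to 327 CPM for TKO mice (log2 0.25 and 0.24, adjusted p = 0.238 and 0.534). Pdia4, an ER protein disulfide isomerase, was at 54.0 to 82.4, 50.4 to 58.7 and 56.1 to 68.5 CPM (log2 -0.33 and -0.20, adjusted p = 0.254 and 0.642), and Sec62, part of the ER translocation machinery, at 121 to 146, 98.0 to 119 and 109 to 131 CPM (log2 -0.31 and -0.23, adjusted p = 0.176 and 0.545). Picked by their p-values, these 6 genes are a description, and groups that do not overlap, as in 5 of them for Zmat3-/- mice, were found in 14.1% of all tested genes.

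Immediate-early and heat shock genes and mitochondrial transcripts were measured beside these genes. Of 38 tested immediate-early genes, which cells induce within minutes of a stimulus, 12 rose in Zmat3-/- and 11 in TKO mice against wt and none passed between the mutants (0.763%, 0.294% and 0.221% of all tested genes passed). DESeq2 called 21, 19 and 1 of them (8.04%, 2.87% and 0.556% of all genes). Several of them are among the genes that the study names from these same libraries, so the counts are not independent evidence. Against wt mice 1 and 2 alone, 19 of them passed as higher and 6 as lower in Zmat3-/- mice and 19 and 5 in TKO mice, and against wt mice 3 and 4 alone 31 and 4, and 28 and 2 (56.1%, 43.6%, 33.0% and 8.15% of all genes passed). Their summed level was 2314 to 3759 CPM for wt mice, 4310 to 4948 CPM for Zmat3-/- mice and 4678 to 5499 CPM for TKO mice. The heat shock list holds genes of the cytosol together with Hspd1 and Hspe1, which encode mitochondrial chaperones. None of its 15 genes passed edgeR's test against wt, and DESeq2 called 2 and 1 of them (8.04% and 2.87% of all genes). At an unadjusted p under 0.05 there were 5 and 4, all higher in the mutants (16.1% and 10.3% of all genes), and between the mutants 3 were higher in TKO mice (4.49%) and none passed by edgeR or DESeq2. In the fit with wt mice 1 and 2 alone, 5 passed as higher and 3 as lower in Zmat3-/- mice and 3 and 2 in TKO mice, and against wt mice 3 and 4 alone 9 and 5 passed, all higher (56.1%, 43.6%, 33.0% and 8.15% of all genes). Their median log2 fold change was 0.28 and 0.54, and it was 0.02 and 0.40 against wt mice 1 and 2 alone and 0.55 and 0.63 against wt mice 3 and 4 alone. Their summed level was 2970 to 4708, 4226 to 5299 and 4778 to 5609 CPM. Mitochondrial transcripts took 4.25% to 6.31% of the counts of wt mice, 6.54% to 14.6% of those of Zmat3-/- mice and 3.86% to 9.29% of those of TKO mice. The part of these measures in the Dnajb9, Hspa5 and Ppp1r15a differences was not tested. In whole-thymus RNA, fewer cells of a type and less RNA per cell cannot be told apart.

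**Figure D5:**
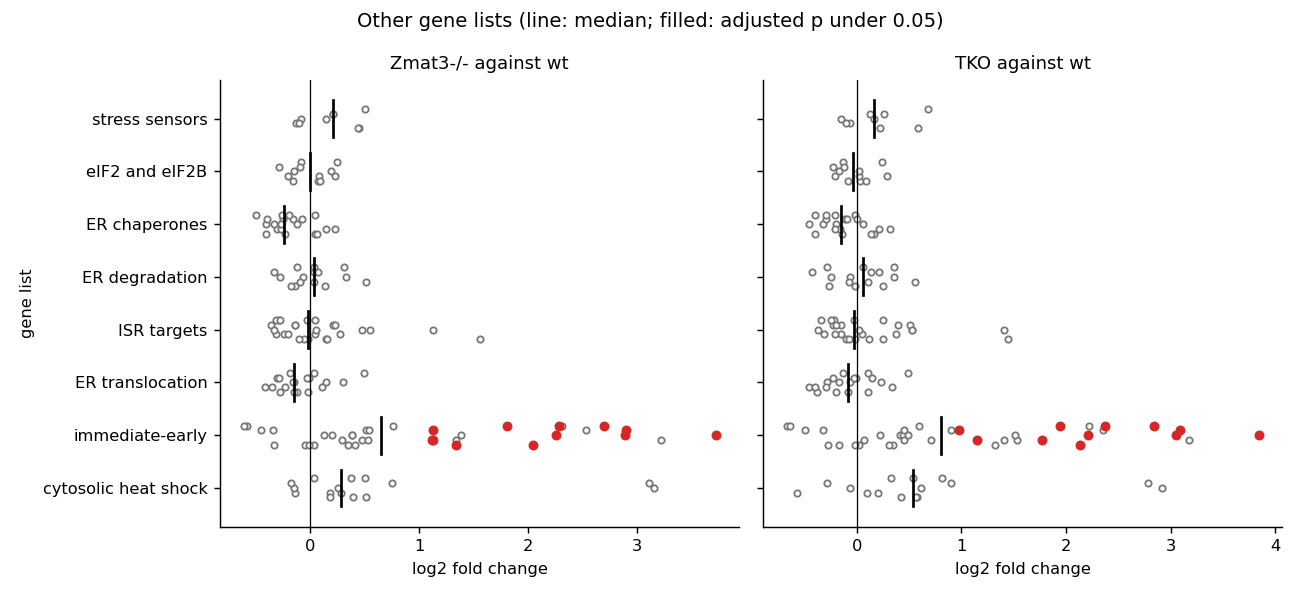
Log2 fold change of every tested gene (points) of the 6 pathway lists and of the immediate-early and heat shock lists, with the median as a line and genes with an adjusted p under 0.05 filled. All filled points, 12 on the left and 11 on the right, belong to the immediate-early list. The list labelled cytosolic heat shock also holds the mitochondrial chaperone genes Hspd1 and Hspe1.

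Among markers of other cells, 12 of 12 of B and plasma cells, 15 or 16 of 16 of myeloid cells, 17 or 18 of 19 of thymic stroma and 5 of 7 of erythroid cells were tested, depending on the comparison. With all mice, none of those tested passed edgeR's test in any comparison. At an unadjusted p under 0.05 there were 5 of 17 stroma markers (4 higher, 1 lower) and 2 of 16 myeloid markers (both higher) in Zmat3-/- mice against wt (16.1% of all tested genes), 1 of each in TKO mice (10.3%), 1 stroma and 1 B or plasma cell marker between the mutants (4.49%), and no others. DESeq2 called 2 myeloid and 3 stroma markers in Zmat3-/- mice against wt (8.04% of all genes) and none in the other comparisons. Against wt mice 1 and 2 alone, the 5 tested erythroid markers were higher in both mutant genotypes (3 and 5 passed), and against wt mice 3 and 4 alone all those tested were lower without passing. In Zmat3-/- mice against wt mice 3 and 4 alone, 9 of 16 myeloid markers passed as higher (median log2 0.53), 8 of 18 stroma markers passed as higher and 2 as lower (0.81), and 1 of 12 B and plasma cell markers passed as higher (0.23), beside 33.0% of all genes. With wt mice 1 and 2 alone, 2 myeloid markers passed in each direction (-0.14), 3 stroma markers as higher and 6 as lower (0.09), and 4 B and plasma cell markers as lower (-0.39), beside 56.1%. In TKO mice none of these 3 lists had a call against wt mice 3 and 4 alone, with medians of 0.47, 0.59 and 0.21. With wt mice 1 and 2 alone no myeloid marker passed (-0.09), 1 stroma marker passed as higher and 3 as lower (-0.22) and 3 B and plasma cell markers passed as lower (-0.37), beside 43.6%. The part of these markers in the differences of the 10 genes was not tested. No marker was at 0 in all mice of a genotype. Their summed levels in CPM overlapped between the genotypes: 92.6 to 189, 106 to 117 and 97.9 to 130.3 for B and plasma cells, 268 to 503, 380.0 to 526 and 253 to 571 for myeloid cells, 252 to 371, 286 to 325 and 274 to 323 for stroma, and 880.1 to 8561, 1153 to 5706 and 2677 to 3721 for erythroid cells, in wt, Zmat3-/- and TKO mice.

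The protein-coding genes whose log2 CPM over the 11 mice was most like that of Dnajb9, among 11991 compared, were Sik1 (Pearson r = 0.996), Trib1 (0.988), Klf4 (0.988), Tnfaip3 (0.987) and Tob1 (0.977). The mice share the genotype difference by which Dnajb9 was selected, and the points form a wt and a mutant cluster, so these values rank genes and carry no test. Sik1, a salt-inducible kinase, was at 13.2 to 19.2 CPM in wt and 110.5 to 153 CPM in mutant mice. Trib1, a pseudokinase, was at 12.2 to 13.6 and 49.5 to 68.3 CPM. None of the other 9 genes was among these 5.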

How the data were processed

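Paired-end RNA-seq libraries (TruSeq RNA Prep Kit v2, which does not mark strand) of thymus cell suspensions were quantified by the authors with Salmon in nf-core/rnaseq on GRCm38.p6 with GENCODE vM25. The deposited values are estimated counts per gene, in whole numbers, without normalization, with 1 column per mouse. Of 54418 genes, 54166 were matched by identifier to GENCODE M21 for names and positions. A second Ddit3 identifier with 0 counts was left out. Library totals were 17669715 to 80207003, and 3 counts in the smallest equal 0.170 CPM (counting error only).

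CPM used TMM factors. Genotypes, taken from the labels, were compared by pairs in R 4.3.3 with edgeR 4.0.16. A gene was tested when the CPM that 20 counts make in the smallest library was reached in a number of mice equal to the smaller group's size; Xist, chromosome Y, rRNA and immunoglobulin genes of no coding class were not tested. P-values came from the quasi-likelihood F-test and were adjusted by Benjamini-Hochberg over all tested genes, two-sided. SE is the absolute log2 fold change over the square root of F, and 95% intervals use the test's degrees of freedom. Single genes were also compared by exact permutation of log2 CPM (prior count 2). The study's own test was DESeq2 with sex and surrogate variables. Sex is not in the labels, and DESeq2 1.42.0, 1 surrogate variable (sva 3.50.0) and the Xist level were alternatives, with RLE size factors, other filters, a joint fit of all 3 genotypes, a fold threshold of log2 1.5, each mouse left out, and the replicate number as a block. Leaving out wt mice 1 and 2 or 3 and 4, and the fits within mice of high or low Xist (above or below 100 CPM), were chosen after the data were seen.

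The labels number the mice in each genotype. In Zmat3-/- and wt mice, deviations from the group mean correlated in each of the 4 same-numbered pairs (0.128 to 0.340), so the numbers were taken to pair these mice, although mice 1 and 2, and 3 and 4, correlated across numbers as well (0.160 to 0.380) and this split cannot be told apart from the numbers. When 200 genes were given a log2 difference of 1 or 3 in simulated data, edgeR recovered 100% of those at 1 in Zmat3-/- against wt (13494 genes) and 99% in TKO against wt (13260 genes). The simulated mice all vary alike, with no pairs of wt libraries that differ, so these shares do not hold for genes that differ between the wt pairs.

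The genes and lists were chosen with earlier results of these data known. Genes named were the 10 of the set, Zmat3, Bbc3 and Cdkn1a, up to 6 passing genes of the pathway lists per comparison (there were none), and the 5 most like Dnajb9. Eif2ak3, Herpud2, Cebpb, Pdia4, Ppp1cb, Sec62 and the overlapping genes were added after their values were seen. The lists hold sensors (9), eIF2 factors (12), chaperones (20), degradation (17 symbols, 16 in the table) and ATF4 and CHOP targets (31). Further lists hold translocation (20), immediate-early genes (39), heat shock genes (15) and cell markers. Promoter sequences are from RefSeq.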

Additional observations from a re-analysis of the deposited data

Results flagged for a closer look

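Of the 20 groups of 4 mice examined gene by gene, 1 held a mouse far from the others: Dnajb9 in Zmat3-/- mouse 3 was at 51.8 CPM, with the other 3 mice at 59.5 to 60.6 CPM, and its gap to the nearest mouse was 0.871 of the range of the group. Chance flags about 1 in 20 such groups. The value remained above every wt mouse.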

How the results depend on the processing

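Of the 9 genes other than Dnajb9, none passed in Zmat3-/- or TKO mice against wt by edgeR. In Zmat3-/- mice the number was 2 with DESeq2, 2 in the joint fit, 1 with Xist as covariate, 5 with 1 surrogate variable, 3 without wt mice 1 and 2, 7 without wt mice 3 and 4, and 5 and 3 among mice of high and low Xist. In TKO mice it was 2, 1 and 3 with DESeq2, the joint fit and the surrogate variable, 3 and 5 without either wt pair, and 3 among mice of low Xist. The corresponding numbers of other pathway genes were 7 (DESeq2), 43 (surrogate variable), 34 and 71 (wt pairs), and 53 and 29 (high and low Xist) in Zmat3-/- mice, and 3, 14, 8, 55 and 1 in TKO mice, with 1 in the joint fit. Of all tested genes, the share that passed in these fits was 8.04%, 37.8%, 33.0%, 56.1%, 42.1% and 28.2% in Zmat3-/- mice and 2.87%, 17.9%, 8.15%, 43.6% and 3.02% in TKO mice, and 1.74% and 1.63% in the joint fit and 1.42% with Xist in Zmat3-/- mice. The cause of these differences between fits was not tested. Leaving out each mouse in turn gave 0 calls for every one of these counts, and between the mutants no alternative gave a call. The replicate block gave adjusted p of 0.201 for Hspa5 and 0.182 for Ppp1r15a in Zmat3-/- mice and 0 calls in all comparisons, so it changed no call. Same-numbered TKO mice correlated with wt at 0.0724 to 0.405 and with Zmat3-/- at 0.0124 to 0.196 and share only a number. By permutation 2 of the 9 genes were under 0.05 in Zmat3-/- mice, 1 to 3 with a mouse left out. With 4 against 4 mice, every gene whose groups do not overlap has a permutation p of 0.0286. In this comparison 14.1% of all tested genes did not overlap. With a mouse left out, TKO mice against wt or Zmat3-/-, and paired sign permutations, cannot reach 0.05.

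Signs turned as follows. In Zmat3-/- against wt mice, Atf4 was -0.037 without wt mice 3 and 4 and -0.016 in high-Xist mice. Herpud1 was 0.19 without wt mice 1 and 2 and 0.10 in low-Xist mice, Sdf2l1 0.15 and Hyou1 0.034 (high Xist), and Edem1 -0.20, -0.12 (low Xist) and -0.034 to 0.22 with a mouse left out. In TKO against wt mice, Xbp1 was 0.077 and 0.11, Herpud1 0.26 and 0.26, Sdf2l1 0.25 and 0.18 and Edem1 -0.12 and -0.10 without wt mice 1 and 2 and in low-Xist mice, and Atf4 was -0.023 without wt mice 3 and 4. Herpud1 was also 0.012 with no filter, 0.036 with Xist and 0.060 with the surrogate variable, and -0.13 to 0.065 with a mouse left out, and Xbp1 -0.12 to 0.016. Between the mutants, Atf4 was -0.0056 at the 20 CPM filter, -0.0053 with the block, -0.026 in low-Xist mice and -0.052 to 0.10 with a mouse left out, and Ddit3 -0.0065, -0.098 and -0.11 to 0.15 for the last 3. As a mean of log2 CPM in place of the log2 ratio of summed CPM, the immediate-early list differed by 1.14 and 1.23 against wt and heat shock by 0.78, 0.82 and, between mutants, 0.040.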
